A study of Homo sapiens with 6 samples.

Results

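SRGAP3, BCAS3 and GNGT1 are 3 long genes in which photoactivatable ribonucleoside-enhanced cross-linking and immunoprecipitation (PAR-CLIP) of hnRNP A1 gave many separate binding clusters, nearly all within introns. The genes were chosen by their numbers of A1 clusters in these libraries, so those numbers are given here as a description. A cluster was counted when it lay inside the gene and on its strand, by position on hg19 and not by the gene name attached to it: SRGAP3 at chr3:9022275-9404737 on the minus strand, BCAS3 at chr17:58754814-59470199 on the plus strand and GNGT1 at chr7:93220885-93540577 on the plus strand. Clusters of any library that shared at least 1 nucleotide on the same strand were joined into a site. The 3 genes held 57 clusters, which formed 30 sites of the 11416 sites of the whole series. Of these, 11 were in SRGAP3, 10 in BCAS3 and 9 in GNGT1.

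All libraries came from HEK293T cells, a human embryonic kidney line, that had been transiently transfected with myc-tagged hnRNP A1 and treated with 4-thiouridine before ultraviolet cross-linking. Anti-myc precipitates were resolved on gels and gave 3 groups of 2 libraries each. A1 was the wild-type protein cut out at the size of a monomer. A1-HMW was the same wild-type protein from the slower migrating band, which the labels call dimeric complexes. A1dm was the monomer of the mutant with the R75D and R88D substitutions, which break the salt bridges between the RNA recognition motifs. The transfected protein was expressed beside the cells' own hnRNP A1, and no library from untransfected cells was analysed here. The lists held 5805 and 8100 clusters in A1, 671 and 865 in A1-HMW, and 232 and 596 in A1dm. The A1-HMW and A1dm lists are several times shorter than the peak sets that the study describes for these groups, and the reason is not given in the sources used here. The lists carried no read numbers (the score column was 0 in every line). Read numbers that the study gives elsewhere were not used here. The depth behind a cluster is therefore not known from the lists, and an absent cluster cannot be told apart from one that fell below the detection limit. The lists also carried no expression levels, so neither the markers of the line nor the expression of the 3 genes could be checked.

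hnRNP A1 is an abundant nuclear RNA-binding protein that binds nascent transcripts, largely in introns, and is best known as a repressor of splice sites. Its tandem recognition motifs are known to prefer UAG-containing RNA. SRGAP3 encodes a GTPase activating protein for Rac that acts in the Slit-Robo pathway of neuronal guidance. BCAS3, breast carcinoma amplified sequence 3, encodes a phosphoinositide-binding beta-propeller protein that works with PHAF1 in autophagy. GNGT1 encodes the gamma subunit of transducin, the G protein of rod photoreceptors.

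The sequences of 15 sites show what the binding sites in these introns shared. They were read from the GRCh37 genome on the sense strand, which has the sequence of the RNA, 5′ to 3′ with T for U. The first of the longest runs of A and G is in capitals. The first 7 are the sites found in both A1 replicates and also in A1-HMW.
SRGAP3-1, chr3:9396825-9396852 (-): GAAAAGAAAGGAGAGGAAGtttgagggt
SRGAP3-6, chr3:9310882-9310903 (-): aggctGAAAGAGGAGAAGGGAc
BCAS3-3, chr17:59137357-59137373 (+): GAAAGAAAGAAGGGAGt
BCAS3-7, chr17:59288099-59288123 (+): gaatGAGGGGAGAGAAGGAAGGGAc
GNGT1-2, chr7:93346896-93346943 (+): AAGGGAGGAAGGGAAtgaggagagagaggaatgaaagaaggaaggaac
GNGT1-5, chr7:93406902-93406927 (+): AGAGGAGGAAGAAGGAAAGAtaagac
GNGT1-7, chr7:93434298-93434320 (+): agaactGAGAGGGAAGAGAAGGt

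The other 8 are from the sites found in both A1 replicates and not in A1-HMW, the 6 of SRGAP3 and 2 of BCAS3.
SRGAP3-11, chr3:9041392-9041417 (-): gagtGAGAAGGGGAGAAAAGAGGGAc
SRGAP3-10, chr3:9087634-9087659 (-): gagaatGGAGGAGAAAGGGAGAGAGt
SRGAP3-9, chr3:9131376-9131398 (-): agtAGAAGGAGGAAGGGAGAAGc
SRGAP3-8, chr3:9135288-9135313 (-): tGGGAAGGAAGGAAAGGAAAGAtgga
SRGAP3-3, chr3:9351051-9351072 (-): AGAGGAAAGGAGGAAAGAGGGt
SRGAP3-2, chr3:9360100-9360125 (-): AGGGGGAAGGAGGAAAGAGGAGGtgt
BCAS3-2, chr17:59082037-59082063 (+): ggaggaggatGAGAAAAGGAAAAGGAt
BCAS3-4, chr17:59211112-59211135 (+): gatAGAAAAGAGGGAAGAGGAAAt

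Each sequence was a run of A and G interrupted by few pyrimidines, and most ended at a T or C. In SRGAP3-3 the run filled 21 of 22 bases, and only the last base was a T. GNGT1-2 was the longest site, at 48 nucleotides, because its A1 and A1-HMW clusters were shifted against each other.

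In SRGAP3, the A1 replicates held 8 and 11 clusters, a mean of 9.5 ± 2.12 (SD, n = 2). The A1-HMW replicates held 2 and 0, and the A1dm replicates 0 and 0. In BCAS3, A1 held 8 and 7 clusters (7.5 ± 0.707, SD, n = 2), A1-HMW 1 and 2, and A1dm 0 and 0. In GNGT1, A1 held 7 and 8 clusters (7.5 ± 0.707, SD, n = 2), A1-HMW 3 and 0, and A1dm 0 and 0. The A1 libraries stood above all other libraries in each gene, the lists being also the longest for A1. With 2 libraries a group the smallest p that a two-sided exact permutation test can give is 0.333, and the A1 numbers had chosen the genes, so no test was made. Per library, the 3 genes took 0.396% of the clusters of A1 replicate 1 (95% Wilson interval 0.264 to 0.594) and 0.321% of those of A1 replicate 2 (0.219 to 0.47). They took 0.894% (0.41 to 1.94) and 0.231% (0.0634 to 0.839) in A1-HMW, which overlapped with A1. In A1dm, 0 of 232 and 0 of 596 clusters lay in the genes, which allows shares of up to 1.29% and 0.503%. Over both A1dm libraries 0 of 828 clusters allow up to 0.362%, a limit between the shares of the A1 replicates, so a share lower than in A1 was not detectable with lists of this length. All intervals and limits here cover counting error only.

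**Figure D1:**
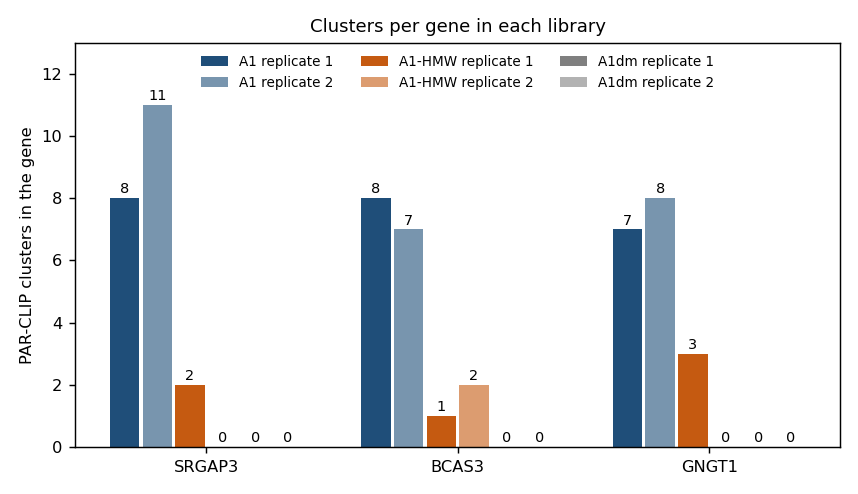
Number of PAR-CLIP clusters in SRGAP3, BCAS3 and GNGT1 in each of the 6 libraries (vertical axis, clusters; bars, 1 library each, with the number above). The A1 libraries held 7 to 11 clusters per gene, A1-HMW 0 to 3 and A1dm 0.

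Per length, A1 replicates 1 and 2 held 2.09 and 2.88 clusters per 100 kb in SRGAP3 (mean 2.48 ± 0.555, SD, n = 2; gene length 382 kb). GNGT1 (320 kb) held 2.19 and 2.5 (2.35 ± 0.221). BCAS3, the longest at 715 kb, held 1.12 and 0.978 (1.05 ± 0.0988). With all sites counted, SRGAP3 and GNGT1 did not differ beyond their spread, and both replicates of BCAS3 were below those of the other genes. Some SRGAP3 sites also lie in another gene of the same strand. Without them its mean was 1.44 per 100 kb, between those of GNGT1 and BCAS3, which did not change. The ranks below count all sites. Among 3666 protein-coding genes of at least 100 kb, 31 had a higher mean density than SRGAP3, 39 than GNGT1 and 361 than BCAS3. The median of these long genes was 0, and 46.7% of them had any A1 cluster. Of all 20163 protein-coding genes 21.6% had an A1 cluster in either replicate. Counting the clusters of both replicates, 4 genes had more than the 19 of SRGAP3, and 10 genes had more than the 15 of BCAS3 and of GNGT1. These ranks describe how the genes were chosen.

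Of the 30 sites, 29 lay in introns, that is, outside every annotated exon of their gene. Sites were taken only inside these long genes, and the intronic part of their length was not computed, so this count is a description. Over the series, 5898 of 10573 A1 sites lay in introns of protein-coding genes, the total including sites outside such genes. That count also left out sites in an exon of any other gene of the strand, so it is not like for like. The study reports a higher intronic share for its monomer A1 peaks, by its own annotation. The annotation was GENCODE 44 lifted to GRCh37, and for each gene the coding transcript with most exons gave the intron numbers. In BCAS3 all 10 sites were inside ENST00000589222, which has 26 exons. Intron 22 of 25, 284 kb long and 39.7% of the gene, held 6 of the 10 sites (BCAS3-4 to BCAS3-9). Introns 7, 15, 19 and 23 held 1 site each. Intron 6, the next longest at 60.7 kb, held 0. The exception to the intronic sites was BCAS3-10: it lies in intron 23 of the coding transcript but inside exon 1 of 1 of ENST00000587872, a retained-intron transcript of the gene.

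In GNGT1 the sites lay 5′ of the short canonical transcript of the gene. The canonical transcript, ENST00000248572, has 3 exons over 4.7 kb and held 0 of the 9 sites. All 9 fell within the introns of an extended transcript. This is ENST00000455502, also annotated as coding, which starts further 5′ and spans 320 kb with 4 exons. Its intron 1 of 3 is 295 kb, or 92.3% of the gene, and held 8 sites, and intron 2, 20.2 kb long, held GNGT1-9. All 9 sites were thus outside the short transcript, and whether it was expressed in these cells is not known from the lists.

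In SRGAP3, 5 of 11 sites were inside the coding transcript ENST00000383836, which has 22 exons over 269 kb. SRGAP3-7, SRGAP3-8 and SRGAP3-9 lay in its intron 3 of 21, which is 24.6 kb long. Intron 10 (9.3 kb) held SRGAP3-10 and intron 18 (15.8 kb) held SRGAP3-11. Its longest intron, intron 1 at 124 kb, held 0 sites. The other 6 sites lay 5′ of the coding transcript, within the transcript ENST00000490889, which starts further 5′. SRGAP3-1 was in its intron 1 of 3 (32.2 kb), and SRGAP3-2 to SRGAP3-6 in intron 3 of 3 (201 kb). SRGAP3-1 to SRGAP3-5 also lay in introns of a noncoding gene of the same strand, ENSG00000254485, and SRGAP3-1 in an intron of THUMPD3-AS1 as well. Transcripts of these genes cannot be told apart from SRGAP3 at those sites. Without them SRGAP3 kept 6 sites and 1.44 A1 clusters per 100 kb.

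**Figure D2:**
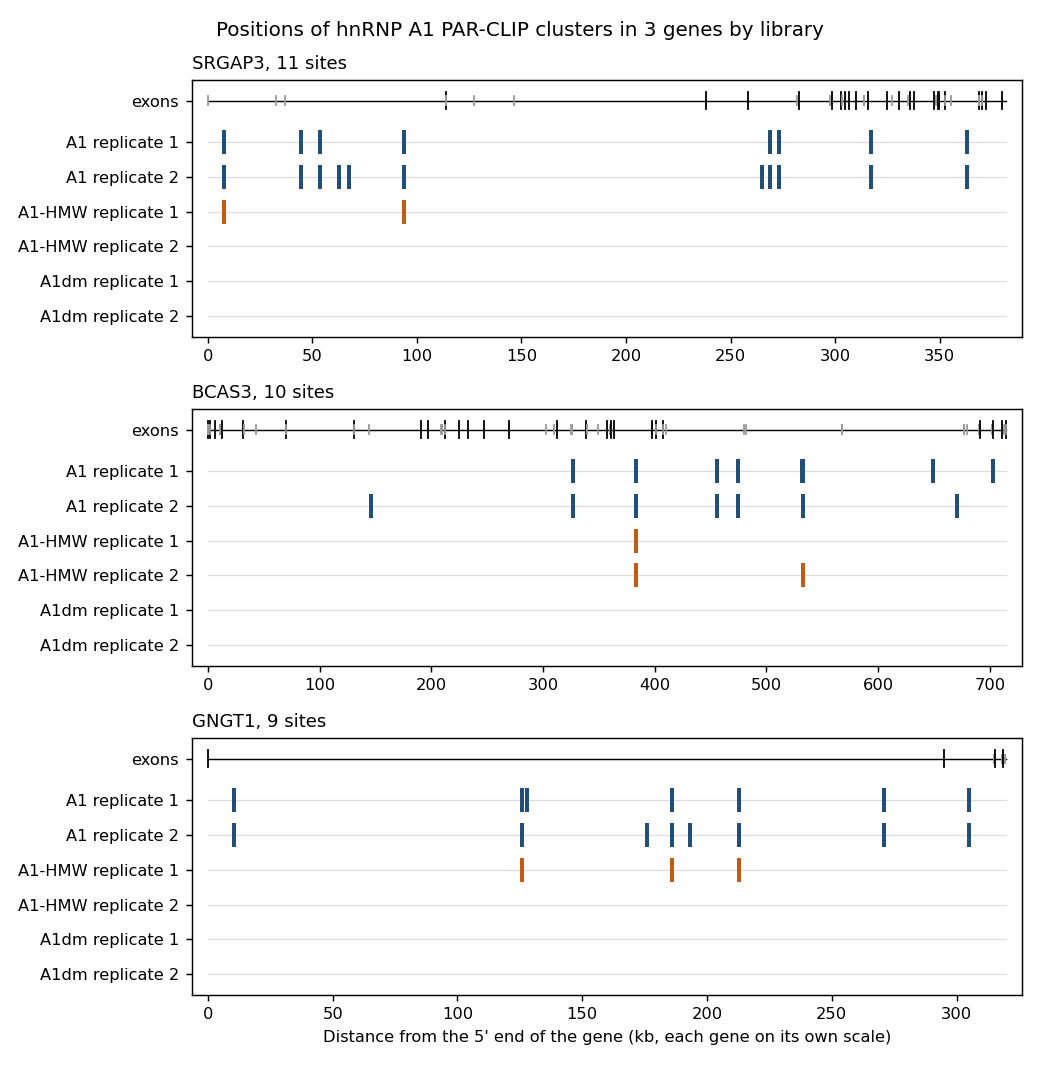
Position of each site (vertical ticks, 1 row per library) against distance from the 5′ end of the gene in kb, with exons on the top row (tall black, coding transcript with most exons; short grey, other transcripts). The 6 sites of intron 22 of BCAS3 and the 8 of intron 1 of GNGT1 are spread over those introns, and SRGAP3 has a gap of 171 kb between its 5′ and 3′ sites.

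Most sites were far from exons. The median distance to the nearest exon of the gene was 8405 nucleotides in SRGAP3 (1416 to 30619), 9988 in BCAS3 (0 to 35713) and 101531 in GNGT1 (9823 to 127574). Only 1 of 30 sites, the exonic BCAS3-10, was within 300 nucleotides of an exon. These distances were not computed for the sites of other genes. The gene names in the lists are those of the nearest transcription start. They named the host gene for 22 of the 57 clusters (9 in SRGAP3, 11 in BCAS3 and 2 in GNGT1), and 17 of the 30 sites carried another name, such as TFPI2 for GNGT1-9. A selection by name would thus have missed most of GNGT1. On the opposite strand of the genes lay 0 clusters in SRGAP3, 1 in BCAS3 and 0 in GNGT1.

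Neighbouring sites were spread along the genes, at distances like those in other long genes with several sites. Measured between site centres, the 10 gaps in SRGAP3 ran from 3.91 to 171 kb with a median of 17.6 kb. The 9 gaps in BCAS3 ran from 1.26 to 181 kb (median 55.3 kb), and the 8 gaps in GNGT1 from 1.75 to 116 kb (median 26.7 kb). Over all 27 gaps the median was 31.8 kb. In all genes of at least 100 kb with 5 or more sites, the members included, 957 gaps had a median of 28.6 kb. There 135 of 957 gaps were under 5 kb and 30 were under 500 nucleotides. In the 3 genes 5 of 27 were under 5 kb. None of the 27 was under 500 nucleotides, too few gaps to tell this from 30 of 957.

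The closest pair was BCAS3-6 and BCAS3-7, 1259 nucleotides apart in intron 22. Its members differed in recurrence: BCAS3-6 was found in A1 replicate 1 alone, and BCAS3-7 in both A1 replicates and A1-HMW replicate 2. The next pair, GNGT1-2 and GNGT1-3, was 1748 nucleotides apart, and again GNGT1-2 was found in both A1 replicates and A1-HMW, and GNGT1-3 in A1 replicate 1 alone. In SRGAP3, sites 9, 8 and 7 formed a row in intron 3 with gaps of 3914 and 4318 nucleotides. SRGAP3-9 and SRGAP3-8 were in both A1 replicates and SRGAP3-7 in replicate 2 alone. SRGAP3-5 and SRGAP3-4, 4868 nucleotides apart, were both found in A1 replicate 2 alone.

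Of the 30 sites, each of which held an A1 cluster, 19 were found in both A1 replicates (63.3%, 95% Wilson interval 45.5 to 78.1). SRGAP3 had 8 of 11 (72.7%, 43.4 to 90.3), GNGT1 6 of 9 (66.7%, 35.4 to 87.9) and BCAS3 5 of 10 (50%, 23.7 to 76.3), with intervals that overlapped. In SRGAP3 every site of replicate 1 was found again in replicate 2, and the 3 others were in replicate 2 alone. In BCAS3, 3 sites were in replicate 1 alone and 2 in replicate 2 alone, and in GNGT1 1 and 2. The background was 31.5% of the 10573 A1 sites of the series and 33.5% of the 5898 intronic ones. A gene chosen for many clusters over both replicates favours sites counted in both, so the closer comparison is with the 42 other protein-coding genes that had 10 or more A1 clusters. There 164 of 362 A1 sites were in both replicates (45.3%, 40.3 to 50.5). Per gene the share ran from 10% to 85.7% with a median of 42.9%, and 8 of the 42 were above the 63.3% of the members. Some of the 42 genes overlap, such as HDAC8 and ENSG00000285547. A site they share counts once in the 362, but in each of them wherever values or numbers of genes are given per gene. The members' share was thus within the range of other genes with many clusters.

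**Figure D3:**
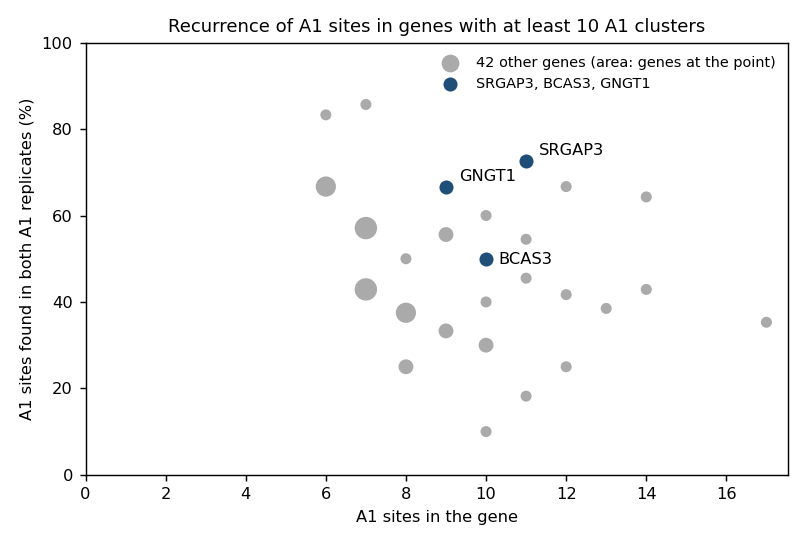
Share of A1 sites found in both A1 replicates (vertical axis, %) against the number of A1 sites (horizontal axis) for genes with at least 10 A1 clusters over both replicates. SRGAP3 (72.7%), GNGT1 (66.7%) and BCAS3 (50%) lie within the range of 42 other genes, 10% to 85.7%.

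The recurrent sites had nearly the same borders in different libraries. Of 19 sites present in several libraries, 9 had identical bounds in all of them. The same share was not computed for the other sites of the series. The clusters of SRGAP3-1 covered the same 28 nucleotides in both A1 replicates and in A1-HMW replicate 1. The 4 clusters of BCAS3-3 covered the same 17 nucleotides. Apart from GNGT1-2, the starts of the clusters of a site differed by at most 6 nucleotides (BCAS3-5) and the ends by at most 5 (GNGT1-5).

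7 of the 30 A1 sites also held an A1-HMW cluster (23.3%, 95% Wilson interval 11.8 to 40.9): SRGAP3-1, SRGAP3-6, BCAS3-3, BCAS3-7, GNGT1-2, GNGT1-5 and GNGT1-7. By gene these were 2 of 11, 2 of 10 and 3 of 9. The background was 9% of all A1 sites and 9.73% of intronic A1 sites, and 49 of 362 (13.5%) in the other genes with 10 or more A1 clusters, per gene 0 to 57.1%. A1-HMW replicate 1 held 6 of the 7 sites and replicate 2 held BCAS3-3 and BCAS3-7. By replicate 1 alone the share was 6 of 30 (20%, 9.51 to 37.3), beside 4.87% of intronic A1 sites and 5.52% in the other genes with 10 or more A1 clusters. Without A1-HMW replicate 1 it was 2 of 30 (6.67%, 1.85 to 21.3), beside 6.24% and 10.2%, so the excess over the background was seen in that library alone. Only BCAS3-3 was found in both A1-HMW replicates, 1 of 7 against 9.95% of A1-HMW sites in the series.

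Each of the 7 sites was found in both A1 replicates, 7 of 7 (64.6 to 100), against a background of 50.4% of intronic A1-HMW sites and 36 of 54 (66.7%) in the other genes with 10 or more A1 clusters. The latter share lies within the interval of the members. Counted from A1, 7 of 19 sites of both A1 replicates held an A1-HMW cluster (36.8%, 19.1 to 59), and 0 of 11 sites of 1 replicate, which allows up to 27.3%. In all intronic sites the shares were 20.3% and 4.41%, and in the other genes with 10 or more A1 clusters 22% and 6.57%. A1-HMW gave no site without A1 in the 3 genes, and 72.1% of intronic A1-HMW sites and 49 of 54 (90.7%) in the other genes with 10 or more A1 clusters likewise held an A1 cluster.

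In GNGT1-2 the A1 and A1-HMW clusters overlapped but were shifted against each other, with the A1-HMW cluster from replicate 1 alone. Both A1 clusters covered chr7:93346896-93346927 and the A1-HMW cluster chr7:93346912-93346943, each 32 nucleotides long and shifted by 16. The site lies in a wider purine-rich stretch: 81.7% of the 150 bases on each side were A or G, and the longest run there was 44 bases. BCAS3-3 needs a reservation of another kind, because its 17 bases have 11 exact copies in the genome, while each of the other 29 sites has 1. Reads of that sequence alone could come from any copy. The study states that uniquely mapping reads were used for its clusters, and the reads behind this cluster are not in the lists. Copies with mismatches and overlap with repeats were not examined for any site. Without BCAS3-3 the A1-HMW share was 20.7% (6 of 29), and 0 sites were left that both A1-HMW replicates held. An antisense gene, BCAS3-AS1, also lies opposite this site.

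No A1dm cluster lay in any of the 30 sites or elsewhere in the 3 genes. The count of 0 of 30 allows up to 10%, and the background was 3.59% of all A1 sites and 3.48% of intronic ones, so a background share would not have been detectable here. Of the 42 other genes with 10 or more A1 clusters, 20 also had no A1dm site.

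The sites shared a high purine content, which the choice of genes did not use. A and G made up 81.8% to 96% of the site with a median of 92.3%, and 23 of 30 sites were above 90%. In the 150 bases on each side the values were 44% to 81.7% with a median of 55.5%. Every one of the 30 sites was above its own flanks, by 12.1 to 47.7 percentage points with a median of 36.0. The smallest difference was that of GNGT1-2. Windows of 25 nucleotides tiled over the 3 genes had a median of 48%. The median of all intronic A1 sites of the series was 91.3%, so the sites of the 3 genes resembled the rest.

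**Figure D4:**
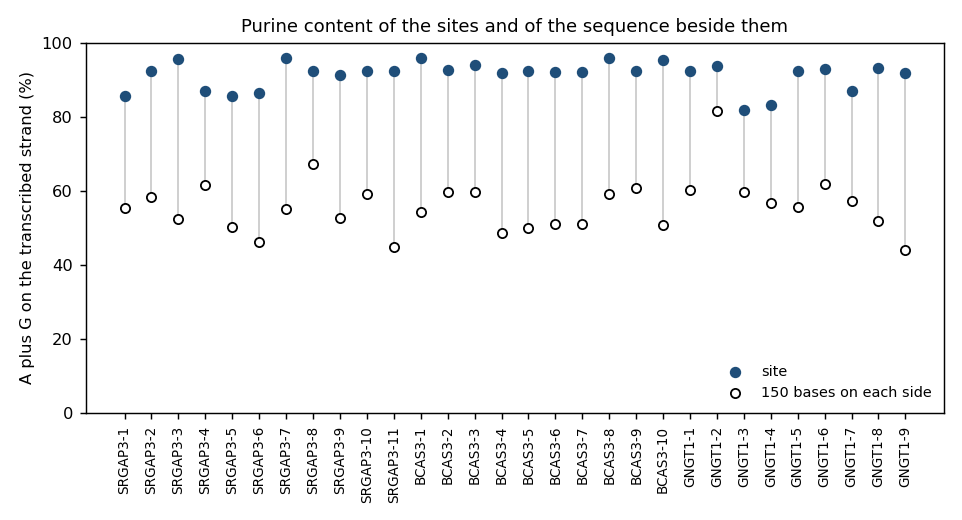
Percentage of A and G on the sense strand (vertical axis, where it is labelled transcribed strand). Filled points are the 30 sites, and open points are the 150 bases on each side of each site. The sites lie between 81.8% and 96%, each above its own flanks, and the flanks of GNGT1-2 (81.7%) are the highest.

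A run of at least 12 purines was present in 29 of 30 sites (96.7%, 83.3 to 99.4), in 97.7% of all intronic A1 sites and in 1.48% of the windows. The exception was SRGAP3-4, whose longest run was 11. The median longest run was 19 bases. The hexamer GAGGAA occurred in 11 of 30 sites (36.7%), in 33.2% of intronic A1 sites and in 0.801% of windows, all searched on the sense strand alone. AGGAAG, which shares AGGAA with it, also occurred in 11 of 30 sites, in 32.2% of intronic A1 sites and in 0.935% of windows. By gene AGGAAG was in 6 of 9 sites of GNGT1 (35.4 to 87.9), 4 of 11 of SRGAP3 (15.2 to 64.6) and 1 of 10 of BCAS3 (1.79 to 40.4), with intervals that overlapped. In the printed set both hexamers appear in SRGAP3-1, SRGAP3-9, GNGT1-2 and GNGT1-5. TAGGG occurred in 0 of 30 sites, in 2.53% of intronic A1 sites and in 1.33% of windows. TAG alone occurred in 5 of 30 (16.7%, 7.34 to 33.6), in 10.4% and in 27.7%: SRGAP3-7, SRGAP3-9, BCAS3-4, GNGT1-3 and GNGT1-6.

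Most sites ended in a pyrimidine. The last base was C or T in 26 of 30 sites, in 91.6% of intronic A1 sites and in 51% of windows, and it was T in 16. 13 sites had 1 T, 15 had 2 and 2 had 3 or more. The start used here lies 1 nucleotide before the listed start and adds the last base of each minus-strand site. These values were not computed with the listed start. Every cluster of every library held at least 1 T with this start, which was chosen because it gave that result. With the listed start 94.7% to 98% of the clusters of a library held a T. PAR-CLIP requires 4-thiouridine, which takes the place of U, so a site made of purines alone could be missed. The lists do not test this.

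The genes held many more purine runs than sites. Of 201 runs of 20 or more purines on the sense strand, 13 overlapped a site (6.47%, 3.82 to 10.7). These were 4 of 57 in SRGAP3, 6 of 109 in BCAS3 and 3 of 35 in GNGT1. In all protein-coding genes of at least 100 kb the share was 1.81%, most of those genes having few or no clusters. By length, 0 of 703 runs of 12 to 14 purines overlapped a site, 18 of 255 runs of 15 to 19 (7.06%), 13 of 102 runs of 20 to 24 (12.7%), 0 of 70 runs of 25 to 34 and 0 of 29 longer runs. The longest run without a site was 62 bases in SRGAP3, 51 in BCAS3 and 189 in GNGT1. Runs of at least 30 purines rarely held a site anywhere: 0 of 52 in the 3 genes and 29 of 23635 (0.123%) in all protein-coding genes of at least 100 kb. A run without a cluster is not shown to be unbound. With the start used here every cluster held a T, and the median site length was 25 nucleotides. The part of this in the 0 counts of the longer runs was not tested.

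**Figure D5:**
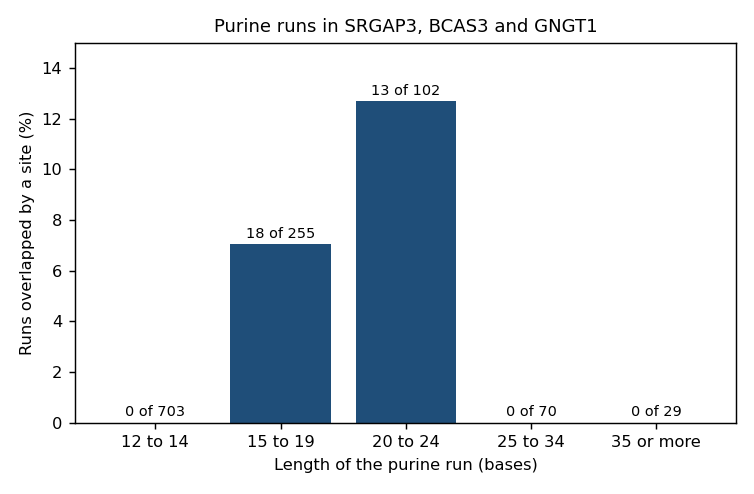
Share of purine runs on the sense strand of SRGAP3, BCAS3 and GNGT1 that overlapped a site (vertical axis, %) by length of the run in bases (horizontal axis). Counts are above each bar. Sites lay at runs of 15 to 24 bases, and 0 of 70 runs of 25 to 34 bases and 0 of 29 longer runs had a site.

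The genes with the most similar numbers of clusters over the 6 libraries, by the sum of absolute differences, were MSI2 (5), TNRC6B (5) and FYN (6) for SRGAP3. For BCAS3 they included NCAM1 (3) and ERC1 (4), and for GNGT1 they were ERC2 (4), NCAM1 (5) and SLC38A1 (5). NCAM1 held 7 and 6 clusters in A1, 1 and 1 in A1-HMW and 0 in A1dm. This likeness covers 6 numbers and follows from the choice of genes with many A1 clusters.

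Genes related to the members by function were counted too. Of 13 annotated genes of the Slit-Robo pathway and the SRGAP family, 5 had an A1 cluster, 2 of them in both A1 replicates. SLIT2, a secreted ligand, held 7 and 2 A1 clusters and 0 and 1 A1dm clusters, and ROBO1, a receptor, held 3 and 2 A1 clusters and 1 and 0 A1-HMW clusters. The paralogues SRGAP1 (318 kb) and SRGAP2 (122 kb) held 0 clusters in all libraries. Of 8 genes around BCAS3, namely PHAF1, the WIPI proteins and other BCAS genes, 4 had an A1 cluster. WDR45, a phosphoinositide-binding WIPI protein, held 1 and 2 clusters in A1, 1 and 1 in A1-HMW and 0 and 1 in A1dm, and WIPI2 held 2 and 1 in A1. Of 16 genes of G protein beta and gamma subunits, 2 had an A1 cluster, GNB1 (1 and 1) and GNG12 (0 and 1), and GNGT2, the cone counterpart of GNGT1, had 0. Against the 21.6% of all protein-coding genes these lists are short, most of their genes are shorter than the members, and nothing particular to them was read from the counts.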

How the data were processed

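The authors precipitated myc-tagged hnRNP A1 from 6 PAR-CLIP samples, removed adapters with BBduk, filtered out ribosomal RNA, aligned reads with STAR, analysed T-to-C changes with wavClusteR, called peaks with PARalyzer and annotated them with HOMER. The submitters' processing notes name hg19 and Bowtie. Versions are not given in the sources used here. Each deposited list gives other values, the start and end of each cluster called in 1 library, and a score that is 0 throughout and was not used. The identifier gives a start 1 nucleotide before the start column. With it every cluster held a T, against 94.7% to 98% with the listed start, so it was used. This was chosen after seeing the lists. The members, the gene lists and the related measures were chosen with earlier results of these data known.

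Clusters were joined into sites (at least 1 shared nucleotide, same strand) and placed on GENCODE 44 lifted to GRCh37, with sequences from the GRCh37 genome (python 3.11.15, pandas 2.3.3, pysam 0.24.0, scipy 1.17.1). Joining and counting were tested on simulated data. Shares carry 95% Wilson intervals, and a limit for a count of 0 is 3 of the total. Sites are not independent replicates, and the labels do not state whether a replicate number marks 1 of the independent experiments that the study describes. The text names the members, the 3 genes closest to each in cluster numbers (1 of them is not reported here) and, per list, at most 3 genes ranked by clusters; relatives with 0 clusters were added after their values were seen. Alternatives were another overlap, joining within 100 nucleotides, leaving out shared loci or each library, other exon sets and other run lengths.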

Additional observations from a re-analysis of the deposited data

How the results depend on the processing

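Of 130 values recomputed over 17 settings, 119 stayed within their interval, their spread or 1.5 times the number of sites, and 11 moved. Many of the 119 could not move, so their number is no measure of stability. A1dm held 0 clusters in the genes, so leaving out an A1dm library changed no value. Every A1-HMW site of the genes also held an A1 cluster, so leaving out an A1-HMW library could change little but the A1-HMW share. An overlap of 10 nucleotides and joining within 100 nucleotides changed no value. Leaving out sites in another gene of the same strand left 6 sites and 1.44 A1 clusters per 100 kb in SRGAP3, a median spacing of 38.6 kb and a run of 12 purines in 100% of sites. With exons of the coding transcript alone 100% of sites were intronic, and a run of 10 purines was in 100%. Of runs of at least 30 purines 0 of 52 had a site, beside 0.123% in all genes of at least 100 kb, and the cause was not tested. Leaving out each library in turn gave an A1-HMW share of 6.67% to 30.4%, a median spacing of 31.8 to 45 kb, an intronic share of 95.7% to 100% and a purine run in 96.2% to 100%. Without BCAS3-3, a setting added after seeing the data, no value left its interval. No paired analysis was possible because the values are counts and shares without a fit to which a replicate term could be added. The number of clusters per list and the lack of read numbers in them limit what an absent cluster can show, most of all in A1dm.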
